A study of Rattus norvegicus with 9 samples.

Results

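The comparison described here set 2 kinds of retinal progenitor-like cells made from rat embryonic stem cells (rESCs) against each other. Its members were the 6 arrays titled rESC-RPC1 (n = 3) and rESC-RPC2 (n = 3), of 9 arrays in the series, chosen by their titles alone. Both kinds came from the rESC line DA8-16, derived from DA rats, and were grown as floating aggregates with Matrigel and the Wnt inhibitor IWR-1e by a modified SFEBq protocol, a method in which stem cells clump and form neural epithelium. Fetal bovine serum (FBS) was given to both from day 8, and both were harvested on day 16. The rESC-RPC1 cells were dissociated and plated for adherent culture on day 10, and moved on day 14 to DMEM/F12 medium with N2 supplement and FBS. The rESC-RPC2 cells floated until day 14, when they were dissociated and plated, and they stayed in GMEM with knockout serum replacement, FBS and 2-mercaptoethanol. The remaining 3 arrays (P-RPC) held neural retina cells from SD rats taken on postnatal day 1. Their levels are given beside some genes for scale only. All ESC-derived cells came from 1 line. The lengths of floating and adherent culture, the day of dissociation and the medium changed together, so their parts in any difference cannot be told apart.

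In the developing eye, a field of neural epithelium marked by homeobox factors such as Rax, Pax6, Six3, Six6 and Lhx2 gives rise to retinal progenitors, pigment epithelium and optic stalk. Progenitors leave the cell cycle as neurons first, and glia come later. Neurons switch on RNA-binding proteins of the Elavl and Celf families, axonal cytoskeleton and release machinery, whereas astroglia carry Gfap, Aqp4 and glutamine synthetase. Cells spread on a dish also lay down extracellular matrix, the collagens, laminins and glycoproteins that they attach to.

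Each array gave a signal for 31099 probe sets, and 9956 genes with a signal at or above the median of all values (123, called the detection threshold below) on at least 3 of the 9 arrays were tested, each through 1 probe set. The 3 arrays of rESC-RPC2 correlated at r = 0.978 to 0.985 over those genes, and rESC-RPC1 arrays correlated with rESC-RPC2 arrays at r = 0.890 to 0.909. Replicates 2 and 3 of rESC-RPC1 were less alike (r = 0.952), with replicate 1 close to both (0.976 each). The 3′ to 5′ signal ratio of the beta-actin control probe sets, which rises with RNA degradation, was 9.12, 10.2 and 6.07 on the rESC-RPC1 arrays and 4.31, 5.36 and 3.997 on the rESC-RPC2 arrays, without overlap. The same ratio of Gapdh overlapped (1.16 to 1.20 and 1.12 to 1.18). The part of this difference in the results was not tested. The arrays of a group are biological replicates from independent experiments per the study's methods. Since whole cultures were measured, fewer cells of a type and less RNA per cell cannot be told apart.

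The cells carried only part of the retinal progenitor profile. Lhx2, Six6, Otx2 and Sox2 were detected on all 6 arrays. Pax6, the central eye field factor, read 67.4, 204 and 84.2 on the rESC-RPC1 arrays and 89.9, 106 and 58.5 on the rESC-RPC2 arrays, so that 1 of the 6 values passed the threshold. On the P-RPC arrays it read 14206, 13484 and 14227. Rax, the earliest eye field marker, read 231, 382 and 135 in rESC-RPC1 and 125, 222 and 76.6 in rESC-RPC2, with overlapping arrays. It was not called, but would be called lower without replicate 3 of rESC-RPC1 (log2 difference -1.21) or replicate 2 of rESC-RPC2 (-1.22). On the P-RPC arrays Rax read 4557, 4615 and 4696. The photoreceptor genes Crx and Gnat2 were under the threshold on all 6 arrays and above it on all 3 P-RPC arrays. Six3 and the photoreceptor gene Rcvrn were under it on all 9 arrays, P-RPC included. The factors detected on all arrays are not restricted to the retina, since other parts of the embryonic forebrain use them too.

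The 2 cultures differed at 1421 of the 9956 genes (14.3%), counted where the fold was at least 2 and the adjusted p of the limma fit was under 0.05. Of these, 500 (5.02%) were higher and 921 (9.25%) lower in rESC-RPC2. The lower side also reached further. Among called genes, 119 were lower by more than 4-fold and 18 higher by as much, and 24 were lower by more than 8-fold against 1 higher. The arrays of the groups did not overlap for 1395 of the called genes. The limits on fold and adjusted p themselves favour such genes, so this count adds no separate support. For 272 of the lower genes all 3 rESC-RPC2 arrays were under the detection threshold and some rESC-RPC1 array was not. For 80 of the higher genes all 3 rESC-RPC1 arrays were under it and some rESC-RPC2 array was not. For such genes only a bound can be given ("at least"), with the dim group set at the threshold. A further 28 called genes were under the threshold on all 6 arrays, and for them not even a bound can be given. The median log2 difference of all genes tested was -0.03, and differences are given throughout as rESC-RPC2 minus rESC-RPC1.

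**Figure D1:**
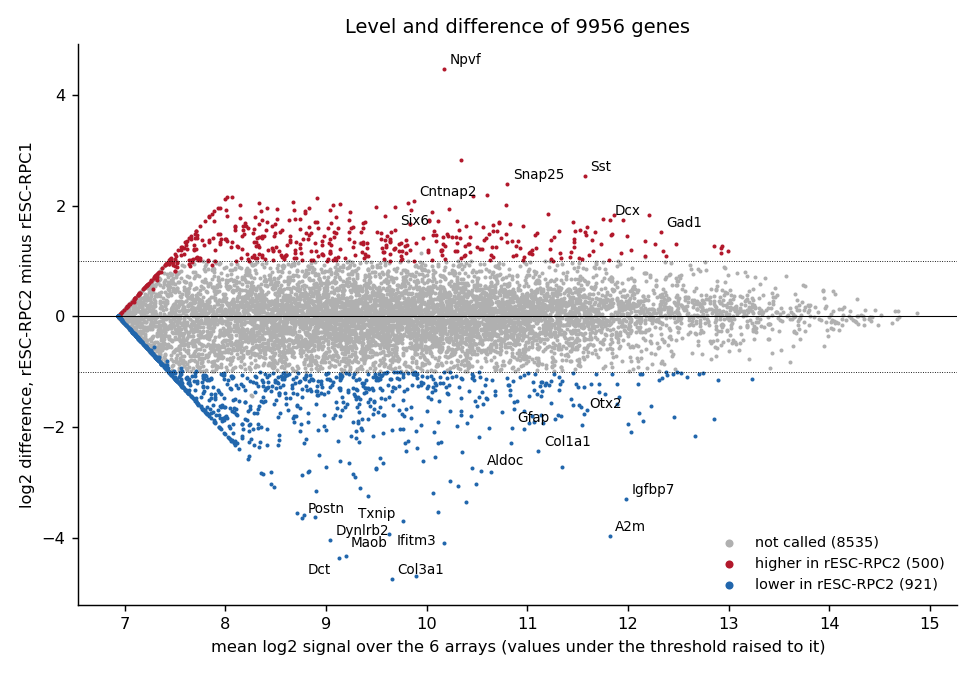
Each point is 1 of 9956 genes, at its mean log2 signal over the 6 arrays (horizontal axis) and its log2 difference, rESC-RPC2 minus rESC-RPC1 (vertical axis), with signals below the threshold set to it; red and blue mark the 500 genes called higher and the 921 called lower, and dotted lines a 2-fold difference. Npvf stands alone at the top at 4.46, whereas many genes lie under -3, among them Col3a1 at -4.75.

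Among the steepest rises were genes of peptide-secreting and inhibitory neurons. Npvf (gene 60570), the precursor of RFamide-related hypothalamic peptides, read 149, 338 and 300.1 on the rESC-RPC1 arrays and 5076, 5203 and 6051 on the rESC-RPC2 arrays. Every rESC-RPC2 array was far above every rESC-RPC1 array, a log2 difference of 4.46 (SE 0.36, adjusted p = 8.81e-06, limma). Sst (gene 24797), somatostatin, an inhibitory peptide of interneurons and of the hypothalamus, read 1308, 1042 and 1478 and then 7643, 7270.0 and 7051. The groups were well apart, by 5.79-fold (log2 difference 2.53, SE 0.13). Pmch, the precursor of melanin-concentrating hormone in the lateral hypothalamus, rose 3.25-fold (307, 447 and 375 against 1114, 834 and 1894), with the third rESC-RPC2 array the highest, and without that array its log2 difference of 1.37 was not called. Of 43 neuropeptide precursors and processing proteins on the array 20 passed the filter, and 12 of these rose, with a list median of 1.14. They included Nxph1, a ligand of neurexins (4.53-fold), and the granule proteins Scg2 (2.70-fold) and Chgb (2.14-fold). Tac1, which encodes substance P, went the other way, from 488, 833 and 134 to 102, 125 and 67.2 (a 3.99-fold difference, adjusted p = 0.00997, limma), or by -1.62 on the log2 scale with values under the threshold raised to it. Its rESC-RPC1 values themselves spanned a wide range, and the lowest was close to the highest rESC-RPC2 value.

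Of the 8 measured markers of GABAergic neurons, 3 rose and none fell. Gad1, an enzyme that makes GABA, read 2892, 3622 and 2693 in rESC-RPC1 and 8309, 9463 and 8405 in rESC-RPC2, 2.86-fold higher (adjusted p = 6.92e-06, limma). Slc32a1, which loads GABA into vesicles, rose 2.89-fold, from 440.0 ± 117 to 1241 ± 52.0 (mean ± SD, n = 3). Gad2, the other GABA-making enzyme, was under the threshold on all rESC-RPC1 arrays and read 252, 352 and 284 on the rESC-RPC2 arrays, at least 2.39-fold higher. The vesicular glutamate transporter Slc17a6 rose as well, 2.85-fold (152, 183 and 224 against 504, 626 and 458). The forebrain factors Isl1 (3.35-fold) and Dlx1 (2.08-fold) rose, the latter by only 0.72 on the log2 scale without replicate 3 of rESC-RPC1, and Fezf2, a factor of forebrain projection neurons, fell by at least 2.30-fold. Of 11 forebrain and hypothalamic factors measured, these 3 were the only ones called. That was 18.2% higher and 9.09% lower, against 5.02% and 9.25% of all genes tested.

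Genes that mark young neurons rose as a group. Of 65 measured genes for neuronal differentiation and axons, 30 rose and none fell, with a median of 0.93. The RNA-binding proteins, which control splicing and stability of neuronal transcripts, moved most evenly, with 8 of 11 higher. Elavl2 read 2027, 2628 and 1891 in rESC-RPC1 and 6283, 7597 and 7938 in rESC-RPC2 (3.35-fold, adjusted p = 5.71e-06, limma). Rbfox1 rose 3.68-fold, Celf5 3.14-fold and Elavl3 2.66-fold. Among 24 cytoskeletal genes 10 rose. Dcx, the microtubule protein of migrating neurons, read 1911, 2756 and 1467 and then 5893, 6684 and 7275. The lowest rESC-RPC2 array was above the highest rESC-RPC1 array, and the same held for the neuronal tubulin Tubb3 (2634, 3068 and 1834 against 6792, 6860.4 and 6535) and for Stmn2 (2.41-fold). Map2 in dendrites, at 6996, 9628 and 5649.7 and 10837, 12693 and 12488, did not reach 2-fold (log2 difference 0.72, adjusted p = 0.00326, limma). Among 19 adhesion and axon genes 8 rose, led by Cntnap2, a neurexin-like protein of axons (4.22-fold), and Nrxn3 (3.83-fold).

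Genes for transmitter release followed. Of 51 synaptic genes on the array 36 passed the filter, and of these 19 rose and 2 fell. Snap25, a fusion protein of the release site, read 688, 1011 and 687 in rESC-RPC1 and 3479, 4525 and 4322 in rESC-RPC2, a 5.22-fold difference (adjusted p = 2.50e-06, limma). The rESC-RPC2 values also stood above the 2344, 2465 and 2414 read on the P-RPC arrays. Cplx1, a clamp on vesicle fusion, rose 3.52-fold, and Rab3a, a small GTPase on vesicles, 3.78-fold. The related Rab3b was lower instead, with 424, 327 and 197 in rESC-RPC1 and 125, 109.9 and 63.0 in rESC-RPC2 (log2 difference -1.66, adjusted p = 0.00117, limma). Sv2b, a vesicle glycoprotein, also fell, by 2.16-fold (-0.76 on the log2 scale and not called without replicate 1 of rESC-RPC2), while its relative Sv2a rose 3.01-fold.

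Receptors and channels rose with no member lower. Of 53 receptor subunits on the array 26 passed the filter and 11 of these rose, with a median of 0.93. Of 39 voltage-gated channel genes 25 passed and 13 rose, with a median of 1.01. Of the receptor genes 12 were detected on every rESC-RPC1 array and 21 on every rESC-RPC2 array, and of the channel genes 16 and 23. Members could thus pass through the group where they were high, and these counts describe detected genes and not the lists. Kcnc2, a potassium channel of fast-firing neurons, was under the threshold on all rESC-RPC1 arrays (70.4, 84.0 and 68.0) and read 353, 557 and 491 on the rESC-RPC2 arrays, at least 3.74-fold higher. The glycine receptor subunit Glra2 was higher by at least 3.08-fold, and Oprl1, the nociceptin receptor, by 4.12-fold (log2 difference 1.79 with values under the threshold raised to it). Gria2, an AMPA receptor subunit, rose 2.53-fold, although its rESC-RPC2 values spread more (3135, 5447 and 5349.6) than those of rESC-RPC1 (1592, 2239.6 and 1576). Drd1, a dopamine receptor gene, met the call but was under the threshold on all 6 arrays.

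Several of the largest rises lay outside these lists. LOC102554253, a locus with no described product, read 454, 469.7 and 539 and then 3297, 3488 and 3581 (7.10-fold). Mpped1, Csrnp3, Hs3st1, Jakmip1, Smim18 and Rab33a rose between 4.09-fold and 4.96-fold. Ppargc1a, a coactivator of mitochondrial genes, rose 4.14-fold. The slow muscle myosin gene Myh7 was higher by at least 4.46-fold and the collagen gene Col19a1 by at least 4.34-fold, since all their rESC-RPC1 values were under the threshold. Their rESC-RPC2 arrays (522, 499 and 629 for Myh7, 404, 660.3 and 565 for Col19a1) were all detected. Outside the neuronal lists the immediate early gene Nr4a3 rose 3.42-fold. In its list of 23, 2 rose (Nr4a3 and Dusp1) and 2 fell (Egr1 and Atf3). That was 8.70% each way, against 5.02% higher and 9.25% lower of all genes tested. The calls of Dusp1, Egr1 and Atf3 were each lost without some single array, at log2 differences of 0.98 for Dusp1 without replicate 1 of rESC-RPC2, -0.90 to -0.99 for Egr1 and -0.946 to -0.996 for Atf3.

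**Figure D2:**
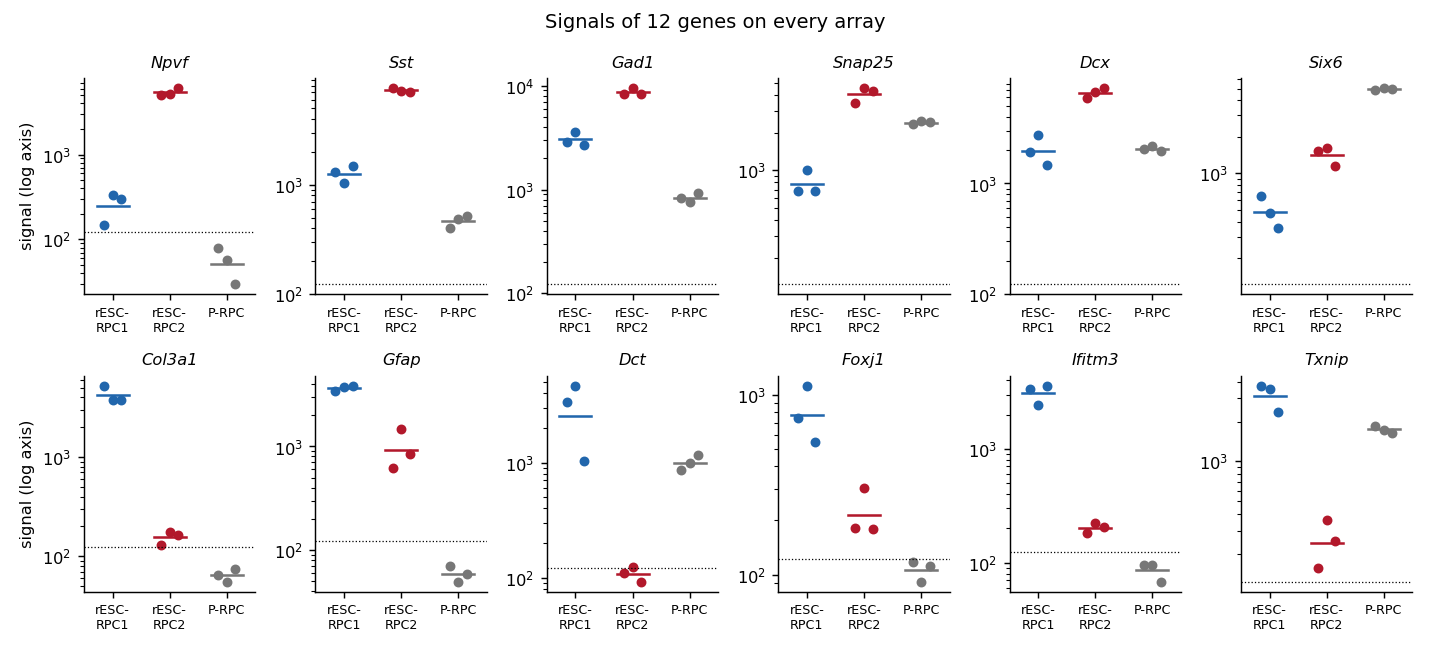
Signals (vertical log axis) of 12 genes on every array, with points for the 3 arrays of rESC-RPC1, rESC-RPC2 and P-RPC, a bar at each geometric mean and a dotted line at the detection threshold of 123. Npvf, Sst, Gad1, Snap25, Dcx and Six6 have every rESC-RPC2 point above every rESC-RPC1 point, and the other 6 genes have every rESC-RPC2 point under them; the rESC-RPC1 points of Dct are the most spread, from 1033 to 4630.5.

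Glial genes were lower in the later-plated culture. Of 38 measured genes for astrocytes and radial glia 16 fell and none rose, with a median of -0.88. Gfap, the astrocyte filament, read 3472, 3748 and 3847 in rESC-RPC1 and 616, 1471 and 849.8 in rESC-RPC2, lower by 4.02-fold (adjusted p = 0.000150, limma). It stayed far above the threshold in rESC-RPC2, where the second array was the highest, and read 69.9, 49.1 and 58.4 on the P-RPC arrays. Maob, a monoamine-degrading enzyme of astrocytes, went from 3038, 4907 and 1208 to 60.4, 149.5 and 87.5, and Clu, a secreted chaperone, from 4122, 5579 and 2057 to 462, 619 and 558. Both were apart between groups by far more than the wide spread inside rESC-RPC1. The calcium-binding S100b was lower by at least 2.97-fold. The gap junction gene Gja1 fell by 3.64-fold and Aldoc, the brain form of aldolase, by 6.91-fold. The water channel Aqp4 was also called (244, 703 and 149 against 26.1, 215 and 64.1), but its arrays overlapped and it lost the call without any 1 of 7 of the 9 arrays. The radial glia genes Vim, Nes, Fabp7 and Slc1a3 were not called, with log2 differences from -0.28 to 0.23.

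Genes named for Müller glia, the glia of the retina, gave 9 lower and none higher of 12 measured. Apoe, a lipid carrier, read 978, 1396 and 588 in rESC-RPC1 and 67.1, 157 and 106 in rESC-RPC2, 8.96-fold lower (adjusted p = 3.80e-05, limma). Only 1 of the 3 rESC-RPC2 values passed the threshold, and with the others raised to it the log2 difference was -2.80. Glul, glutamine synthetase, fell by 2.81-fold. Rlbp1, which binds visual cycle retinoids, passed the threshold on 1 of the 6 arrays (45.5, 218 and 9.73 against 2.25, 5.33 and 1.77), so its fold has no firm size. Brain astrocytes share most of these genes.

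Pigment cell genes were also lower, 5 of the 8 that passed the filter out of 15 on the array, while Bmp4, kept in that list as a factor of pigment epithelium, was called higher with overlapping arrays and lost the call without any 1 of 7 of the 9 arrays. Dct, an enzyme of melanin synthesis, read 3389, 4630.5 and 1033 in rESC-RPC1 and 109.9, 125 and 92.1 in rESC-RPC2. The groups were 23.4-fold apart, although the third rESC-RPC1 array had less than the others. Since 1 of the 3 rESC-RPC2 values passed the threshold, the log2 difference was also taken with the others raised to it, -4.36 in place of -4.55. Mitf, the pigment lineage factor, fell by 4.01-fold (704, 681 and 592 against 143, 192 and 160.0), with little spread in either group. Gpnmb was lower by at least 4.58-fold and Pmel by at least 2.53-fold. Tyrp1 was under the threshold on all 6 arrays, and the pigment markers Tyr and Mlana were not detected on any of them.

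Genes for motile cilia, the beating cilia of ependymal cells, appeared among the largest falls. Dynlrb2, a dynein light chain, read 2035, 6415 and 746 in rESC-RPC1 and 93.5, 139.7 and 127 in rESC-RPC2 (log2 difference -4.17, SE 0.59, adjusted p = 0.000254, limma). The second rESC-RPC1 array was the highest and the third the lowest, and even that one was above every rESC-RPC2 array. Foxj1, the factor that switches on the motile cilia program, fell by 3.56-fold (743, 1122 and 544 against 183, 305 and 180.5). A set of 69 cilia symbols was put together after these values were seen, so its counts are a description. Of its 40 measured members 20 were lower and none higher, with a median of -1.04. Some of the lower members were detected on every rESC-RPC1 array and on no rESC-RPC2 array. Members could thus pass the filter through the group where they were high, and the count does not describe the whole set. Ccno, a cyclin family member needed to multiply basal bodies, was lower by at least 8.16-fold, and Tekt1, a filament protein of the axoneme, by at least 4.53-fold. Without replicate 2 of rESC-RPC1, 12 members were called lower. In the list of choroid plexus and ependyma markers, which holds Foxj1 and Tekt1, 6 of 10 were lower, and 3 without replicate 1 or without replicate 2 of rESC-RPC1. Ttr, the defining transcript of choroid plexus, passed the threshold on 1 of the 6 arrays.

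Promoters of cilia genes often hold the motif of RFX factors, which act with Foxj1. The window from 250 bases before to 50 bases after the start of each gene was read from RefSeq (build GRCr8) and searched on both strands for GTTGCCNNG, in which N is any base. It was found in 5 of the 17 called cilia genes with a promoter (29.4%), in 6 of the 17 not called (35.3%) and in 5.08% of all 27457 promoters. The share was thus no lower among the members that were not called. The matches in the 5 called genes are shown, 5′ to 3′ along the gene, with the motif in capitals; CNNGGCAAC is the motif on the other strand.
Ccno, chr2:46363824-46363853 (+): gGTTGCCAGGgtgacgacggacgcgcggag
Cfap298, chr11:43677585-43677632 (-): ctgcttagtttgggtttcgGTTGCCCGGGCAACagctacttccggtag
Lrrc23, chr4:159277880-159277928 (-): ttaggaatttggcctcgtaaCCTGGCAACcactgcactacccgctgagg
Morn1, chr5:170929291-170929339 (+): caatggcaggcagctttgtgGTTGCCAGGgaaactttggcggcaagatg
Ropn1l, chr2:84164389-84164437 (-): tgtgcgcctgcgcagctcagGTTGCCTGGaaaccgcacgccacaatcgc

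Matrix genes fell in large number. Of 138 genes for the extracellular matrix on the array 109 passed the filter. Of these 66 were lower and 3 higher, with a median of -1.17. Of the 109, 102 were detected on every rESC-RPC1 array and 86 on every rESC-RPC2 array. Some members could thus pass through the group where they were high. Among 25 collagens 17 fell. Col3a1 (gene 84032), a fibrillar collagen of loose connective tissue, read 5229, 3756 and 3746 in rESC-RPC1 and 131, 177 and 164 in rESC-RPC2, 26.9-fold lower (adjusted p = 1.75e-07, limma), and its arrays were tight in both groups. Col1a1 fell by 5.39-fold, from 5687, 2326 and 10217 to 1192, 727 and 993, with a more than 4-fold span inside rESC-RPC1. The basement membrane collagen Col4a5 fell by 3.25-fold. Among 12 laminin and basement membrane genes 7 fell, including Lama5 (3.69-fold) and Lama2 (at least 2.23-fold).

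Of 31 matrix glycoprotein genes on the array 24 passed the filter, and 20 of these were lower. All 24 were detected on every rESC-RPC1 array and 15 on every rESC-RPC2 array. Members could thus pass through the group where they were high, and the count describes detected genes and not the list. Postn, periostin, a protein of mesenchymal matrix, read 1790.3, 737 and 2762 in rESC-RPC1 and was under the threshold on all rESC-RPC2 arrays, at least 12.6-fold lower. Fbln2, an elastic fibre protein, fell by 8.33-fold. Fibronectin, Fn1, was an exception, with 8694, 7262 and 12520.2 against 8739.7, 4812 and 7113 and overlapping arrays (log2 difference -0.47, adjusted p = 0.110, limma). The enzymes that build and cross-link collagen gave 13 lower of 17. Plod1, a lysyl hydroxylase, fell by 6.23-fold, Loxl1, a cross-linking oxidase, by 7.22-fold, and Lox itself by 2.05-fold. The Lox call was lost without replicate 3 of rESC-RPC1 (log2 difference -0.67) or replicate 2 of rESC-RPC2 (-0.89). Of 14 proteases and inhibitors 7 fell. A2m, alpha-2-macroglobulin, a broad protease inhibitor, read 15442, 13736 and 13836 in rESC-RPC1 and 826, 1206 and 766 in rESC-RPC2, 15.7-fold lower.

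The 3 matrix genes that rose were Spock3 (172, 241 and 228 against 656, 1153 and 676), a brain proteoglycan, Gpc2, a glypican of growing axons (2.35-fold, just under 2-fold at a log2 difference of 0.99 without replicate 3 of rESC-RPC1), and Col2a1, the cartilage and vitreous collagen (2.43-fold). Of 17 proteoglycans 2 were higher and 2 lower (11.8% each, against 5.02% and 9.25% of all genes tested), with a list median of -0.17. Of 25 focal adhesion genes 8 were lower (32%), among them the tetraspanin Cd9 (4.26-fold) and the caveolin Cav1 (2.80-fold). Of 7 integrins 3 were lower, and 1 without replicate 3 of rESC-RPC1.

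Contractile genes gave few calls. Of 17 measured smooth muscle and actin genes 1 rose and 1 fell (5.88% each, against 5.02% and 9.25% of all genes tested). Tpm1, a tropomyosin, read 2018, 1045 and 3364 in rESC-RPC1 and 7022, 4416 and 5498 in rESC-RPC2 (2.89-fold higher, adjusted p = 0.00431, limma), with every rESC-RPC2 array above. Mylk, myosin light chain kinase, fell by 4.18-fold. Tagln, transgelin of smooth muscle, read 2721, 1528 and 7731 against 9319.6, 4897 and 6527, and Acta2, smooth muscle actin, 515, 324 and 1767 against 2199, 1015 and 1401. For both, the third rESC-RPC1 array lay within the rESC-RPC2 range and the others were under it, so that neither was called (adjusted p = 0.123 and 0.0873, limma). Without that array both were called higher, at log2 differences of 1.71 (Tagln) and 1.84 (Acta2). Ccn1, a target of YAP, rose 3.58-fold, and Axl, another of the 12 YAP and SRF targets, fell by 2.42-fold. The mesenchymal markers Dcn and Lum were not detected.

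**Figure D3:**
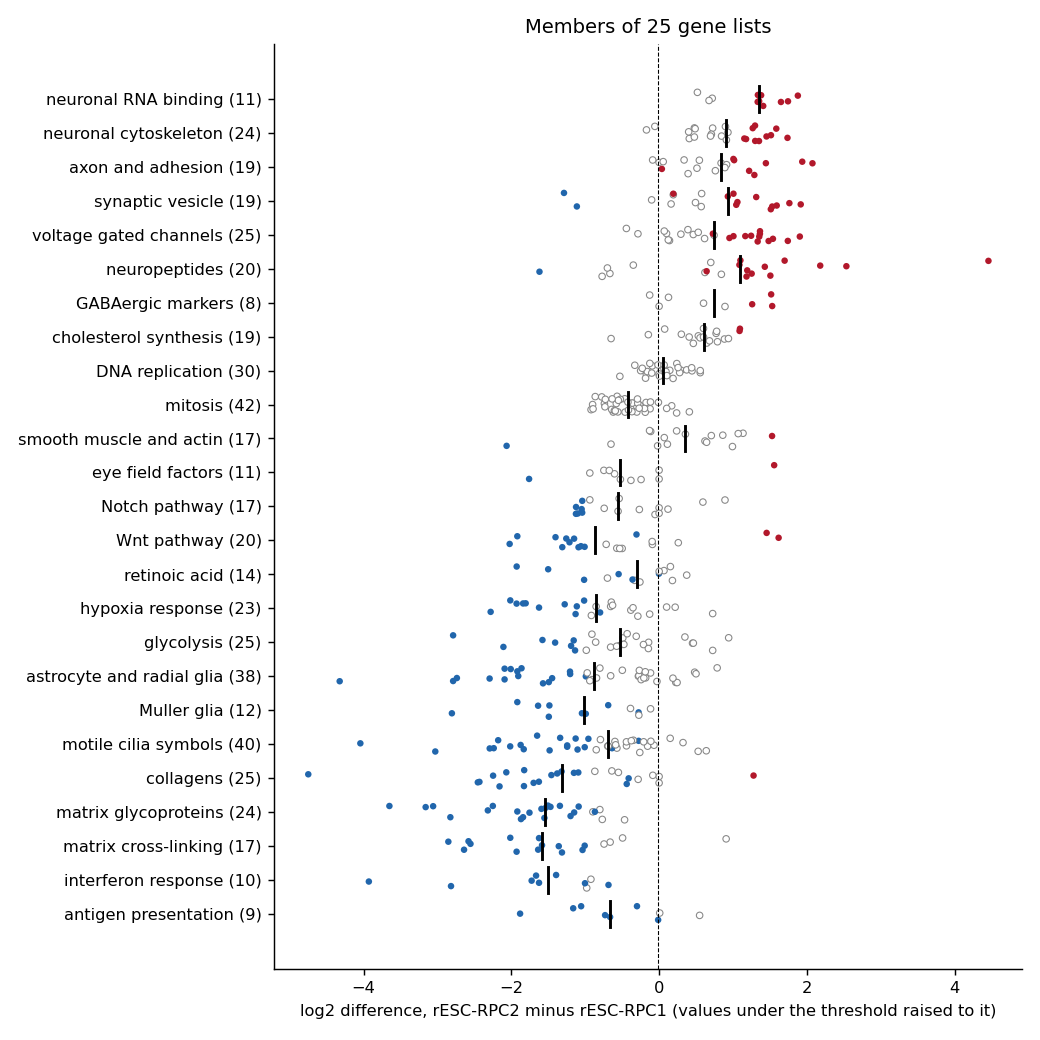
Each point is a measured member of the gene list named on the vertical axis (number of members in brackets), at its log2 difference, rESC-RPC2 minus rESC-RPC1, with signals below the threshold set to it; red is called higher, blue called lower, white not called, the black bar the list median and the dashed line the median of all genes tested. Neuronal lists lie to the right with no or few blue points, matrix, glial and interferon lists to the left, and replication and mitosis lists hold no called gene.

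Several interferon-response and antigen-presentation genes were lower. Of 27 interferon-response genes on the array 10 passed the filter on low signals and 8 of these fell. All 10 were detected on every rESC-RPC1 array and 5 on every rESC-RPC2 array, so members passed through the group where they were high, and the 8 of 10 is a description of detected genes and not of the list. Ifitm3, a membrane protein that blocks virus entry, read 3379.8, 2444 and 3571 in rESC-RPC1 and 183, 223 and 205 in rESC-RPC2, 15.2-fold lower (adjusted p = 6.58e-07, limma). Its relatives Ifitm2 (7.04-fold) and Ifitm1 (at least 3.31-fold) fell too. Irf1, a transcription factor induced by interferon, was detected on every rESC-RPC1 array (333, 338 and 522) and on no rESC-RPC2 array (77.5, 70.5 and 63.1), at least 3.17-fold lower. Ifi35 went from 212, 283 and 247 to 6.82, 18.5 and 16.2, under the threshold. The count was 5 without replicate 1 of rESC-RPC1.

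For antigen presentation through MHC class I, 9 of 18 genes passed the filter and 7 of them were lower, with 7 of the 9 detected on every rESC-RPC1 array and 3 on every rESC-RPC2 array. B2m, the shared light chain of class I molecules, read 8994, 8708 and 8445 in rESC-RPC1 and 2439, 2280.4 and 2378 in rESC-RPC2, 3.68-fold lower (adjusted p = 1.81e-07, limma), and was bright on all 6 arrays. Tap1, a peptide transporter, was lower by at least 2.08-fold and Psmb9, an immunoproteasome subunit, by at least 2.24-fold. The class I heavy chain gene RT1-S3 was near the threshold (log2 difference -1.87), and probes of this gene family may read its other members. Several members were dim. The count was 4 without replicate 1 or without replicate 3 of rESC-RPC1, and 3 with values under the threshold raised to it. In the complement list 4 of 8 fell, with Serping1, a C1 inhibitor, lower by at least 1.55-fold. The microglial markers checked (5 genes) were under the threshold on all 6 arrays. Cd14, a receptor outside those 5, was above it on the rESC-RPC1 arrays (205, 146 and 280.4).

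The promoters of these genes were searched in the same window for the core that interferon regulatory factors bind, GAAA followed after any 2 bases by GAAA, or on the other strand TTTC followed after any 2 bases by TTTC. Of the 15 lower genes of both lists 13 had a promoter in the table, and 9 of the 13 held the motif (69.2%), against 1 of 4 members not called. Over all measured members with a promoter it was 10 of 17 (58.8%). The share was 3.77% of all 27457 promoters, 2.54% of the 8356 genes tested that had a promoter, 5.03% of called lower genes and 2.84% of called higher genes. The lists were made of interferon-response and antigen-presentation genes, so a high share could be foreseen whichever way they moved. With 4 members not called, no conclusion about the cultures is drawn from these shares. The 9 stretches are shown with the motif in capitals. In 7 it reads along the gene, and in RT1-S3 and Tap1 against it.
Ifitm3, chr1:205541773-205541822 (-): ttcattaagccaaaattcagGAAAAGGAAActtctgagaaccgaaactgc
Ifitm2, chr1:205482352-205482401 (-): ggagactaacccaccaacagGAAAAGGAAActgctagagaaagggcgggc
Ifi27, chr6:128355123-128355172 (+): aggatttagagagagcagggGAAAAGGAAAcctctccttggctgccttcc
Igtp, chr10:42874924-42874973 (+): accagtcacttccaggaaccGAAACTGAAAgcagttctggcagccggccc
B2m, chr3:129549160-129549209 (+): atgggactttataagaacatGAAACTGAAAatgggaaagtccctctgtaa
RT1-S3, chr20:2675396-2675445 (+): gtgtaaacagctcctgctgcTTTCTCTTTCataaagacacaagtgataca
Tap1, chr20:4668635-4668684 (-): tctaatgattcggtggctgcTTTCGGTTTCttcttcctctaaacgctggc
Tap2, chr20:4652308-4652357 (-): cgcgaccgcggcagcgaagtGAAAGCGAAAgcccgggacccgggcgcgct
Tapbp, chr20:4967874-4967923 (-): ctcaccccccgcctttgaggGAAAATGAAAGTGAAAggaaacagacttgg
Ifitm3, Ifitm2 and Ifi27 share the same 10 letters, and Igtp and B2m another 10.

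Genes that respond to low oxygen, and those of sugar breakdown, leaned lower. Of 23 measured hypoxia-response genes 11 fell and none rose, with a median of -0.92. Ndrg1 was lower by at least 3.58-fold (501, 319 and 529.6 in rESC-RPC1), Ddit4, an inhibitor of mTOR, by 4.86-fold and Bnip3, a mitophagy receptor, by 2.42-fold. Of 25 glycolysis genes 7 fell (28%, against 9.25% of all genes tested). Ldha, lactate dehydrogenase, read 11462, 11045 and 11662 in rESC-RPC1 and 6336, 4242 and 4966 in rESC-RPC2 (2.23-fold lower, adjusted p = 4.03e-05, limma). Pdk4, a brake on pyruvate entry into mitochondria, fell by 4.84-fold, and the lactate exporter Slc16a3 by at least 2.99-fold. The hypoxia motif (ACGTG or GCGTG on either strand) was in 8 of 9 lower hypoxia genes with a promoter, but also in 63.9% of the promoters of genes tested. Txnip, a glucose-induced binding partner of thioredoxin, fell furthest of the redox genes, from 3718, 3517 and 2346 to 157, 358 and 249 (log2 difference -3.70).

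The lipid lists together had 3 of 58 measured genes higher (5.17%) and 7 lower (12.1%), near the shares over all genes tested (5.02% and 9.25%). Of 19 cholesterol synthesis genes 2 rose, Idi1 (2793, 3225 and 3492 against 6638, 6063 and 7605, 2.14-fold) and Fdft1 (2.13-fold), with a list median of 0.60. Of 16 fatty acid synthesis genes 3 fell. Srebf1, the factor that drives fatty acid synthesis, read 1299, 1392 and 1501 in rESC-RPC1 and 249, 247 and 196 in rESC-RPC2 (6.08-fold lower, adjusted p = 4.88e-07, limma), and Scd, stearoyl-CoA desaturase, fell by 2.61-fold. The sterol exporter Abca1, named after its values were seen, moved with Srebf1, from 1871, 1538 and 1750.3 to 259, 216 and 215 (7.48-fold lower). The arrays of Srebf1, Scd and Abca1 were tight in both groups. Of 23 genes for fatty acid oxidation and ketones 4 fell, among them Acadm (2.98-fold) and Cpt2 (2.21-fold), and Angptl4, an inhibitor of lipoprotein lipase, rose 2.55-fold, a call lost without any 1 of the 6 arrays but replicate 3 of rESC-RPC1 or replicate 2 of rESC-RPC2.

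Of 35 antioxidant and selenoprotein genes 9 fell (25.7%, against 9.25% of all genes tested) and 1 rose, with Nqo1, a quinone reductase, lower by 2.90-fold and Selenop, a selenium carrier, by 6.85-fold (log2 difference -2.52 with values under the threshold raised to it). Of 15 heat shock genes 3 fell (20%, against 9.25% of all genes tested) and none rose. The largest fall of the 3 was that of the small heat shock protein Hspb1 (7572, 5166 and 7648 against 1409, 785 and 934, 6.62-fold). Of 20 genes of the integrated stress response and serine synthesis 3 rose (5.02% of all genes did), namely the amino acid transporter Slc7a3 (3.91-fold), Chac1 and Mthfd2. Only Slc7a3 kept its call without each array in turn. The count was 1 without replicate 2 and 5 without replicate 3 of rESC-RPC1. The third rESC-RPC1 array was the highest of its group for 19 of the 20.

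Wnt signaling genes fell in 11 of 20 measured and rose in 2. Sfrp2, a secreted Wnt modulator of retinal progenitors, read 834, 829.6 and 389.8 in rESC-RPC1 and 154, 204 and 128 in rESC-RPC2 (4.06-fold lower, adjusted p = 0.000176, limma), and Dkk3 fell by 3.78-fold. The nuclear effectors Tcf7l2 (2.64-fold) and Lef1 (at least 2.39-fold) fell, and so did the receptor Fzd8 (2.22-fold, or a log2 difference of -0.99 without replicate 1 of rESC-RPC1). The secreted antagonist Wif1 (3.07-fold) and the ligand Wnt7a (292, 362 and 270.5 against 848, 836 and 834) were the members that rose. Both cultures had been treated with IWR-1e.

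Notch genes, which hold progenitors back from becoming neurons, fell in 6 of 17 measured. Notch1 read 2399, 2280.1 and 1861 in rESC-RPC1 and 1018, 1077 and 942 in rESC-RPC2 (2.14-fold lower), and its target Hey2 fell by 2.18-fold. Hes1, another target, was just under the 2-fold limit (-0.94 on the log2 scale, SE 0.07, adjusted p = 5.87e-06, limma). The count was 3 without replicate 3 of rESC-RPC2.

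Retinoic acid genes fell in 6 of 14 measured, most of them dim. Cyp26a1, which degrades retinoic acid, was lower by at least 3.80-fold (453, 728 and 308 in rESC-RPC1), and Aldh1a1, which makes it, by at least 1.46-fold. Raising values under the threshold to it left 3 of the 6. In the insulin-like growth factor list 6 of 17 fell, with the binding protein Igfbp5 (4.88-fold) and the imprinted RNA H19 (7513, 1659 and 5624 against 634, 577 and 349) among them, and Igf1 was called higher with overlapping arrays, which it was not without replicate 1 or 2 of rESC-RPC1 (log2 difference 0.85 and 1.13) or replicate 2 or 3 of rESC-RPC2 (1.23 and 1.26). Fgfr1 and Fgfr2 fell by 2.42-fold and 2.56-fold, and Fgf13, which acts inside neurons on sodium channels, rose 3.05-fold. TGF-beta and BMP genes gave 3 lower (9.68%) and 1 higher (3.23%) of 31, near the 9.25% and 5.02% of all genes tested. Without replicate 2 of rESC-RPC1, 5 were lower.

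Of 11 eye field factors measured 1 was called higher and 1 lower (9.09% each, against 5.02% and 9.25% of all genes tested). Six6 read 651, 477 and 357 in rESC-RPC1 and 1517, 1625 and 1144 in rESC-RPC2, 2.94-fold higher (adjusted p = 0.000120, limma), while Otx2, a factor of forebrain, pigment epithelium and photoreceptor precursors, read 6193, 7644 and 3663 and then 1571, 1741 and 1634, 3.39-fold lower. The arrays of neither gene overlapped. Six6 read 4858, 5026 and 4949 on the P-RPC arrays. Lhx2 (log2 difference -0.75) and the progenitor gene Sox2 (-0.52) were lower on every rESC-RPC2 array than on any rESC-RPC1 array but did not reach 2-fold. Of 12 phototransduction genes measured none was called, but only 4 of them were detected on any of the 6 arrays. The others passed the filter on the P-RPC arrays alone, so they say little about the 2 cultures. Of 7 outer segment genes measured 1, Rom1, was called lower (14.3%, against 9.25% of all genes tested), and only 2 of the 7 were detected on any of the 6 arrays. Of 24 measured genes of other retinal neurons 3 were called higher and 3 lower (12.5% each, against 5.02% and 9.25% of all genes tested). Among amacrine and horizontal cell factors Onecut1 and Onecut2 were higher and Tfap2a lower. Among ganglion cell genes Isl1 was higher, and Eya2 and Thy1 were lower. The rESC-RPC2 values of Onecut1 and Onecut2 were 96.7, 178 and 65.9 and 113, 144 and 92.0, at or near the threshold. Onecut1 lost its call without replicate 2 of rESC-RPC2 (log2 difference 0.78) and Onecut2 without replicate 3 of rESC-RPC1 (0.99). Reln, a secreted guide of migrating neurons, rose 3.25-fold.

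Proliferation genes did not separate the cultures at the 2-fold limit. None of 30 replication genes and none of 42 mitosis genes was called, with medians of 0.06 and -0.42. Mki67, a marker of cycling cells, read 3061, 2792 and 3206 in rESC-RPC1 and 2263, 1871 and 1940.0 in rESC-RPC2. Its arrays did not overlap, and the log2 difference of -0.58 (SE 0.09, adjusted p = 0.000331, limma) was under the limit. Pcna differed by 0.07 (95% interval -0.09 to 0.23). Of 21 genes for G1 and its control 2 fell (9.52%, near the 9.25% of all genes tested), the inhibitors Cdkn1c (2.57-fold) and Cdkn1a (2.06-fold). Cdkn1a fell by only 0.63 on the log2 scale without replicate 3 of rESC-RPC1 and 0.96 without replicate 2 of rESC-RPC2. No ribosomal protein gene of 24 was called.

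Markers of other cell types were mostly absent. The 3 endothelial and 2 red cell markers checked were under the threshold on all 6 arrays. Kdr, a vessel growth factor receptor that newborn retina cells also carried (6361, 6356 and 6722 on the P-RPC arrays), read 593, 981 and 369.7 in rESC-RPC1 and 129.8, 119 and 125 in rESC-RPC2, 4.81-fold lower. Olig1 and Mbp of the oligodendrocyte lineage were detected, Olig2 and Sox10 were not. Esrrb, the only pluripotency marker of the check set on the array, read 327, 288 and 308 in rESC-RPC1 and was under the threshold in rESC-RPC2, at least 2.51-fold lower.

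The 3 rESC-RPC1 arrays differed among themselves more than the rESC-RPC2 arrays did. A span of at least 2-fold was seen for 567 genes inside rESC-RPC1 and for 72 inside rESC-RPC2. Between replicates 2 and 3 of rESC-RPC1, 238 genes were at least 2-fold higher in replicate 2 and 291 in replicate 3, and replicate 1 lay between them for 491 of these 529. Replicate 2 was the highest of its group for 14 of the 16 astrocyte genes called lower in rESC-RPC2 and for 19 of the 20 called cilia genes. It was also the highest for 15 of 20 neuropeptide genes and for 14 of 19 axon and adhesion genes of neurons. Replicate 3 was the highest for 15 of 17 contractile genes, for 38 of the 66 matrix genes called lower and for 24 of 30 replication genes. Of the 238 genes high in replicate 2, 98 were called lower and 10 higher in rESC-RPC2, and of the 291 high in replicate 3, 86 and 15. Over all genes tested 9.25% were lower and 5.02% higher. Genes under the threshold on all rESC-RPC1 arrays could not enter these counts, which favours lower calls, so no conclusion is drawn from them.

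**Figure D4:**
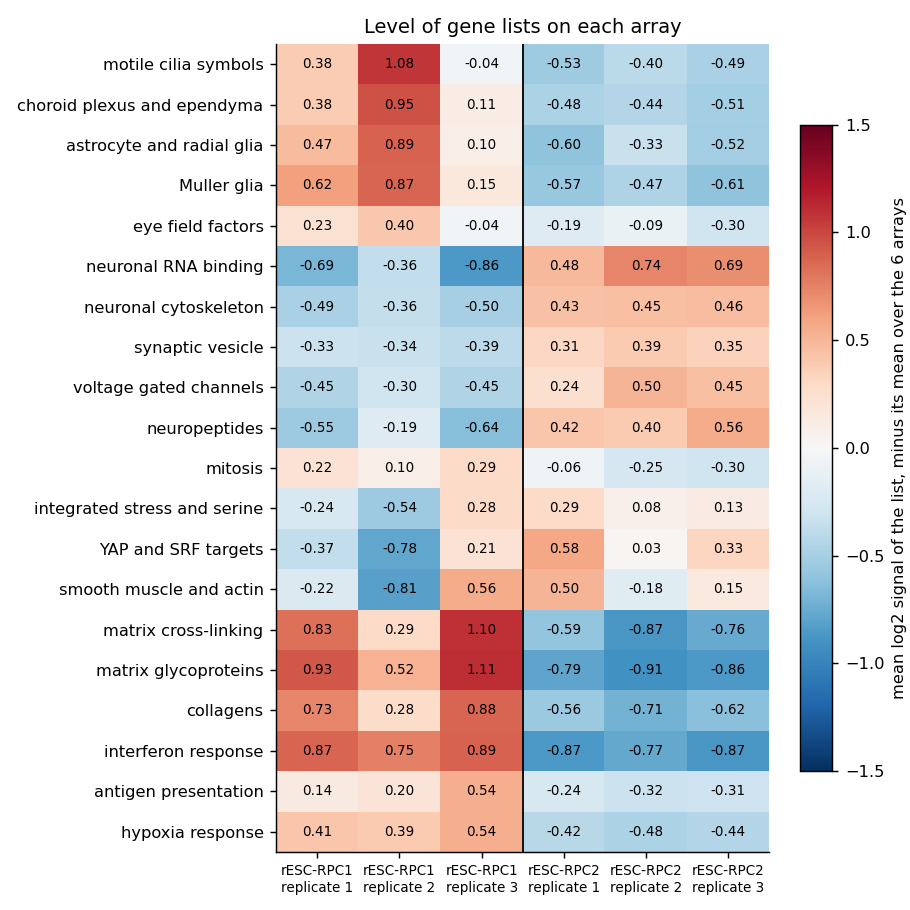
Mean log2 signal of each gene list (rows) on each array (columns), minus the mean of the list over the 6 arrays, with signals below the threshold set to it; red is above and blue under that mean, and the black line parts the groups. Every neuronal list is blue on the 3 rESC-RPC1 arrays and red on the 3 rESC-RPC2 arrays, whereas the smooth muscle and actin list is highest on replicate 3 (0.56) and lowest on replicate 2 (-0.81) of rESC-RPC1.

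**Figure D5:**
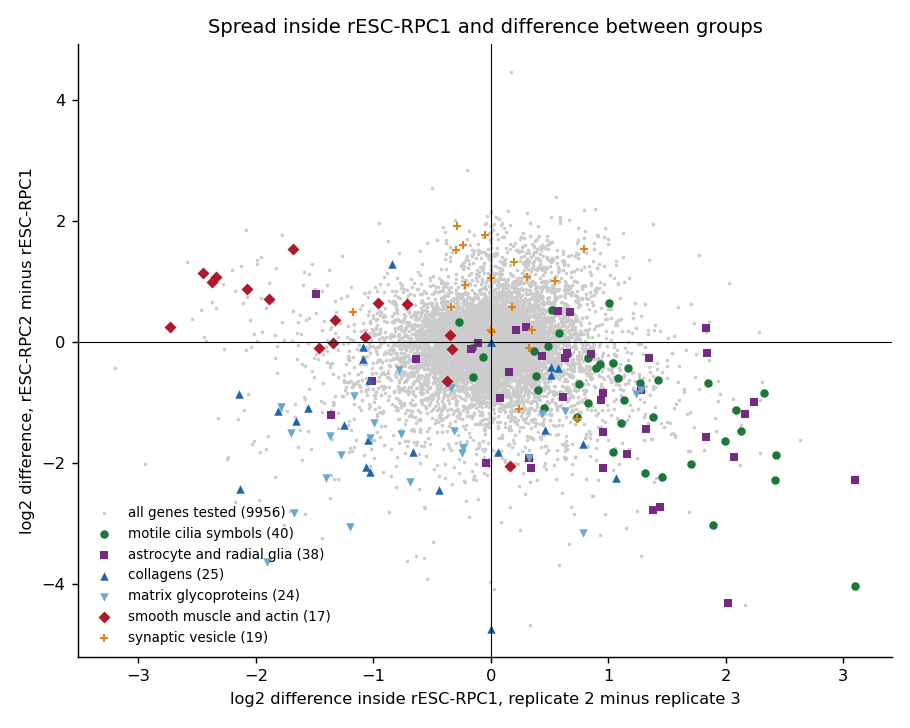
Each point is a gene, at the log2 difference between replicates 2 and 3 of rESC-RPC1 (horizontal axis) and the log2 difference, rESC-RPC2 minus rESC-RPC1 (vertical axis), with signals below the threshold set to it; coloured points mark 6 gene lists and grey points all 9956 genes. Cilia and astrocyte members lie at the lower right, matrix members at the lower left, smooth muscle and actin members at the left near or above 0, and synaptic vesicle members mostly in the upper part close to the middle.

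Among 254 called genes with more than 1 tested probe set, all probe sets were called the same way for 158 and opposite ways for 1. Ntrk2, the receptor of brain-derived neurotrophic factor, was chosen after its values were seen. Its probe set 1368972_at read 444, 509 and 316 in rESC-RPC1 and 1708, 2056 and 1842 in rESC-RPC2 (log2 difference 2.17, adjusted p = 6.25e-06 over all probe sets, limma). Another, 1383135_at, read 4530, 7312 and 2271 and then 603, 645 and 563 (log2 difference -2.81), and 1397246_at and 1370687_a_at fell with it (-2.95 and -1.71). Neurons and glia are known to make receptor forms of Ntrk2 with and without the kinase domain. The transcripts that each probe set reads were not determined here.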

How the data were processed

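RNA of 9 cultures or tissue samples was hybridised to Affymetrix Rat Genome 230 2.0 arrays, 1 array each. The authors deposited linear signal intensity values per probe set, made with MAS 5.0 (version not given in the sources used here), which scales each array: the 2% trimmed mean was 500.2 on all 9. No counts lie behind array values, so the number of arrays (3 per group) limits the precision. Groups were taken from the sample titles.

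Values were floored at 1 and taken to log2. Of 31099 probe sets, 57 were controls, 20826 had 1 gene symbol in the platform annotation, 436 several and 9780 none. For each of 14217 genes the probe set with the highest mean over all arrays was kept, and 9956 genes reached the median of all values (signal 123) on at least 3 arrays. They were fitted with limma 3.58.1 (R 4.3.3, lmFit and eBayes with a variance trend) with 1 mean per group over all 9 arrays, so that the 3 groups shared the estimate of spread, and with Benjamini-Hochberg adjustment over all genes. A gene was called at an adjusted p under 0.05 and a fold of at least 2. The scripts were tested on simulated data. Deviations of same-numbered arrays from their group means correlated at r = -0.01, 0.27 and -0.04. Pairs with different numbers ranged from -0.30 to 0.31. Same-numbered pairs thus did not stand out, and the main fit had no replicate block.

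The comparison and the gene lists were chosen with earlier results of these data known. The genes named were the 15 largest rises and falls among called genes without overlap, the genes the study names, called members of each list with the smallest adjusted p, and markers of cell types. Pmch, Rlbp1, Lox, Loxl1, Fn1, Hes1, Abca1, Ntrk2 and the cilia genes were named after their values were seen. Promoter windows came from RefSeq (GRCr8) and were matched by symbol, with 8356 of the 9956 genes found. Alternatives were quantile normalization, median centring, the 6 arrays alone, other filters, values raised to the threshold, the mean of probe sets, a replicate block, no variance trend, the methods' t-test and leaving out each array.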

Additional observations from a re-analysis of the deposited data

How the results depend on the processing

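The 1421 calls (500 higher, 921 lower) came to 1396 under quantile normalization, 1403 (559 higher, 844 lower) under median centring, 1313 with the 6 arrays alone, 1740 without a filter, 1170 with a stricter one, 1132 with values raised to the threshold, 1406 with the mean of probe sets, 1402 without the variance trend, and 1333 and 1135 with the methods' t-test before and after adjustment. The replicate block gave 1426, of which 1420 were shared with the unpaired fit. Probe sets with or without a symbol gave 2422 calls, 1088 of them higher. Leaving out 1 array gave 1224 to 1453 calls, 441 to 572 higher and 754 to 946 lower. Of the 319 genes whose 6223 alternative values were computed, none that was called changed sign (2 of all 1421 calls did without a filter), while 277 values lost and 12 gained a call.

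Of 820 counts for 41 gene lists, 791 stayed within 1.5 times. The methods' t-test, adjusted, left 3 of 5 pigment epithelium genes, 9 of 17 collagens, 4 of 7 laminins, 2 of 4 complement genes, 1 of 3 integrated stress genes (1 also unadjusted), 5 of 9 antioxidant genes, 6 of 11 Wnt genes, 3 of 6 ependymal genes and 6 of 20 cilia genes. No filter raised the interferon response from 8 to 15 and TGF-beta and BMP from 3 to 5. The stricter filter left 2 of 7 antigen presentation genes, 1 TGF-beta and BMP gene, 3 ependymal and 12 cilia genes, having fewer genes tested. Raised values left 3 antigen presentation and 3 of 6 retinoic acid genes, the 6 arrays alone also 3 retinoic acid genes, and median centring 3 of 6 Notch genes; the cause was not tested for these. Leaving out 1 array gave 1 to 3 integrins, 5 to 9 interferon, 4 to 7 antigen presentation, 1 to 5 integrated stress, 3 to 6 Notch, 2 to 5 TGF-beta and BMP, 3 to 6 ependymal and 12 to 20 cilia genes, and 4 to 7 of the transmitter transport genes that rose (4 without replicate 3 of rESC-RPC2).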

Other observations

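Probe sets without a single gene symbol leaned the other way from named ones. Of 3997 such probe sets tested, 410 were higher (10.3%) and 236 lower (5.90%) in rESC-RPC2, whereas of the tested probe sets with 1 symbol 678 were higher (5.195%) and 1098 lower (8.41%). They were dimmer, with a median of the mean signal of 343 against 559.6. Among those detected on all 6 arrays the largest differences were -3.93 for 1377161_at and -3.09 for 1376193_at, and 2.37 for both 1393000_at and 1395714_at, on the log2 scale. What these transcripts are was not determined here.

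Transporters and enzymes of transmitters were called in both directions. Of 25 measured 7 rose and 6 fell. Those that rose included Gad1, Gad2 and Slc32a1 of inhibitory neurons, and those that fell included Maob and Glul of astrocytes. Th, the first enzyme of dopamine synthesis, read 121, 84.0 and 151 in rESC-RPC1 and 249.7, 372 and 183 in rESC-RPC2 (log2 difference 1.16, adjusted p = 0.00998, limma), and its difference was under 2-fold without replicate 2 of rESC-RPC1 (0.93) or replicate 2 of rESC-RPC2 (0.89).

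Axon guidance genes were called about as often as genes in general, 4 of 45 higher (8.89%) and 3 lower (6.67%) against 5.02% and 9.25% of all genes tested. Among them the ephrin receptor Epha5 (2.41-fold) and the Slit receptor Robo2 (2.37-fold) rose and the ephrin receptor Ephb3 fell by 3.24-fold.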
